A study of Mus musculus with 18 samples.

Results

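The gastrocnemius, the large calf muscle that in mice is made mostly of fast fibres, was compared between old mice given SeMSNs, a nano-selenium supplement, and old control mice. The comparison rested on 6 of the study's 18 RNA libraries, 3 per group, chosen by their tissue and treatment labels, and on the 13150 of 34745 genes in the deposited table that passed a filter on low counts. The other 12 libraries came from kidney and brain of the same 2 treatments. All mice were wild-type C57BL/6 males that entered the study at 18 months of age and were killed at 23 months. Control mice ate a normal diet and received normal saline by gavage. The submitters' texts disagree on the dose of SeMSNs: one gives 5 mg/kg body weight at 1 mg/mL, the other 10 mg/kg by gavage each day. The labels do not tie a library to its own mouse, so the p-values below measure the spread between these libraries, and SeMSNs library 3 carries the number 4 in the deposited table.

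Polyadenylated RNA of whole muscle was sequenced, so fewer cells of a type and less RNA per cell cannot be told apart. Total counts lay between 18262444 and 20758114 per library. The 8 defining genes of skeletal muscle fibres, among them *Myh4*, *Mylpf* and *Pvalb*, had a summed level of 44442 to 53514 FPKM in controls and of 51817 to 64819 FPKM with SeMSNs, as the tissue label gives. Control library 3 stood apart from the other controls. On the first principal component, which held 37.1% of the variance, control libraries 1 and 2 lay at -37.8 and -45.8, while control library 3 lay at 12.8, near the SeMSNs libraries at 28.8, 24.5 and 17.5. Results are therefore given with and without that library. It was singled out from these same values as the control nearest to the SeMSNs libraries. Leaving it out tends to widen the differences between the groups, so genes that pass only without it gain no separate support.

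As background, selenium is used in the body as the amino acid selenocysteine in a small set of selenoproteins, many of them antioxidant enzymes. Muscle responds to hormones, contraction and feeding through protein kinases that act on transcription. The salt-inducible kinases hold the CRTC coactivators in the cytoplasm by phosphorylating them. CRTC proteins released from that hold assist the transcription factor CREB, and *Sik1* is itself a CREB target gene. *Irs2* encodes an adaptor that couples the insulin receptor to phosphoinositide 3-kinase.

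SeMSNs were accompanied by lower levels of *Sik1*, *Irs2* and a gene model labelled *Myh14*, and no gene was higher at the same threshold. These 3 of 13150 genes (0.0228%) had an adjusted p under 0.05 by the quasi-likelihood test of edgeR, adjusted by Benjamini and Hochberg over all genes tested. At an unadjusted p under 0.05 there were 824 higher and 883 lower genes. DESeq2 called 38 higher and 125 lower genes on the same counts.

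*Sik1*, on chromosome 17 at 31844248 to 31855792 (GRCm38), was at 92.9, 117 and 121 CPM (counts scaled to library size with edgeR's TMM factors) in the control libraries and at 29.4, 19.1 and 24.4 CPM in the SeMSNs libraries. The lowest control was above the highest SeMSNs library, and control library 3 lay with the other controls. The gene fell by 2.19 ± 0.22 on the log2 scale (SE, n = 3 per group, adjusted p = 0.0246), and by 2.12 ± 0.22 without control library 3 (adjusted p = 0.0104). Leaving out control library 2 or any 1 SeMSNs library moved its adjusted p to between 0.0528 and 0.219, with log2 fold changes between -2.35 and -2.04. In brain *Sik1* differed by -1.13 ± 0.25 and in kidney by -0.13 ± 0.29, neither past the threshold (adjusted p = 0.255 and 0.927). The difference of the gastrocnemius fold change from those of kidney and brain did not pass the test either (adjusted p = 0.204 and 0.327).

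*Irs2*, on chromosome 8 at 10986980 to 11008458, was at 36.9, 65.5 and 50.02 CPM in controls and at 5.68, 6.08 and 9.92 CPM with SeMSNs. The groups did not overlap, and every SeMSNs library was far below the lowest control. The gene fell by 2.81 ± 0.29 (SE, n = 3 per group, adjusted p = 0.0248), and by 2.83 ± 0.32 without control library 3 (adjusted p = 0.0114). Without control library 2 or any 1 SeMSNs library the adjusted p lay between 0.0922 and 0.256. The antisense gene *9530052E02Rik* overlaps *Irs2*, and whether counting used strand is not given in the sources used here. It held 9 to 21 counts in controls and 3 to 20 with SeMSNs.

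*Irs2* was one of the 2 of 18001 genes (0.0111%) whose log2 fold change differed between gastrocnemius and kidney, and one of the 6 (0.0333%) that differed between gastrocnemius and brain. In kidney its log2 fold change was 0.03 ± 0.29 and in brain -0.05 ± 0.18. The difference was -2.85 ± 0.42 against kidney (adjusted p = 0.0358) and -2.74 ± 0.41 against brain (adjusted p = 0.0191), from one edgeR fit over the 18 libraries. The other gene that differed from kidney was the *Myh14* model. Without control library 3, 101 of 18449 genes differed from kidney and 288 from brain. Leaving out any other single gastrocnemius library gave 0 to 4 genes against kidney and 3 to 10 against brain. Without SeMSNs library 2 no gene differed from kidney, *Irs2* included.

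*Myh14* encodes the heavy chain of nonmuscle myosin II-C. The model past the threshold, ENSMUSG00000108439 on chromosome 7 at 44606210 to 44665497, held 477, 606 and 314 counts in controls and 2, 8 and 4 counts with SeMSNs. It fell by 6.51 ± 0.45 on the log2 scale (adjusted p = 0.00219), and by 6.76 ± 0.33 without control library 3 (adjusted p = 0.00016). Without SeMSNs library 3 it did not pass the threshold (adjusted p = 0.0922). The model nearly coincides with the annotated *Myh14*, ENSMUSG00000030739 at 44605819 to 44665503 on the same strand, and is not in the GENCODE M21 annotation. The annotated gene held 2623, 3080 and 678 counts in controls and 734, 1396 and 1646 with SeMSNs, a log2 fold change of -0.68 ± 0.53 (adjusted p = 0.591). Summed, the models gave 3100, 3686 and 992 counts in controls and 736, 1404 and 1650 with SeMSNs, and the groups overlapped. How reads were divided between the models is uncertain, so the fall is one of the model and is not shown for the gene.

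Promoter windows are described for lower genes picked by p and size of fold change. Of these, *Rcan1* and *Slc7a1* did not pass the threshold, and a link between the genes was not tested. Of *Sik1*, *Irs2* and the 7 next lower genes by p, 7 matched RefSeq windows of 250 bases before to 50 bases after a start (GRCm38.p6), 10 windows in all. *Sik1* and *Pvr* had no window, so the counts below leave them out. Shown are the window of *Irs2*, chr8:11008880-11009179 on the minus strand, with the E-box CACGTG in capitals, and the second window of *Rcan1*, chr16:92400029-92400328 on the minus strand, with the full cAMP response element TGACGTCA and the AP-1 motif TGANTCA in capitals, both 5′ to 3′.
Irs2: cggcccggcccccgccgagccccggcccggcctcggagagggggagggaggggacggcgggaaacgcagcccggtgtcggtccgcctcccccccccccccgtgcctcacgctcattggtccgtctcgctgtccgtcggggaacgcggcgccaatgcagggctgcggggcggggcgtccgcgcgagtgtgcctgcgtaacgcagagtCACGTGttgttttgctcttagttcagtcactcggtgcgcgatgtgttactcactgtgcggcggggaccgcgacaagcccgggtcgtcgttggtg
Rcan1: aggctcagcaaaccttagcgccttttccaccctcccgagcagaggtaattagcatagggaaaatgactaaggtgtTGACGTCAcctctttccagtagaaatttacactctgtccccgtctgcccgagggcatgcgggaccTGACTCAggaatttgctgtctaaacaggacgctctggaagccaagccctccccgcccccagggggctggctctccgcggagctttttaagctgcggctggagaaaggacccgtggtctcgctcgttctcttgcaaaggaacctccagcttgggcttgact
On either strand, TGACGTCA was in 1 of the 10 windows and in 1.79% of 32851 RefSeq windows. The shorter element TGACG or CGTCA, which lies within the full one, was in 3 of the 10 windows, of *Rcan1*, *Slc7a1* and *Srxn1*, and in 20.8% of all windows. The window of *Irs2* held neither the full nor the shorter element. TGANTCA was in 3 windows of the same genes and in 7.81% of all, and CACGTG in 2 windows, of *Irs2* and *Rcan1*, and in 7.15% of all. A match describes letters in these windows and shows no binding.

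The 7 next lower genes by p did not pass the threshold by edgeR in the 6 libraries (adjusted p = 0.0710 to 0.124). Each passed without control library 3. DESeq2 called all 7 in the 6 libraries, among its 125 lower genes. Their groups did not overlap, which held for 8.14% of all genes tested on the lower side. Because the 7 were picked by small p and size of fold change, neither this lack of overlap nor the DESeq2 calls add support. *Slc7a1*, the cationic amino acid transporter CAT-1, was at 10.5, 12.9 and 11.2 CPM in controls and at 3.80, 4.04 and 3.87 CPM with SeMSNs. The fold change on the log2 scale was -1.56 ± 0.20 (adjusted p = 0.0710). *Rcan1*, an inhibitor of the calcium-activated phosphatase calcineurin, was at 170, 196 and 209 CPM against 55.9, 73.9 and 83.3 CPM, a log2 fold change of -1.43 ± 0.21. These genes had tight groups, with control library 3 beside the other controls. *Cdkn1a*, which encodes the cyclin-dependent kinase inhibitor p21, was at 165, 151 and 79.7 CPM in controls and at 33.4, 30.7 and 21.02 CPM with SeMSNs (-2.21 ± 0.31). *Srxn1*, whose product repairs overoxidised peroxiredoxins, was at 146, 140 and 154 CPM against 63.5, 72.8 and 67.98 CPM (-1.11 ± 0.17). The other lower genes of this set were *Pvr*, an adhesion receptor of the nectin-like family (-1.20 ± 0.17), *Pdf*, the mitochondrial peptide deformylase, which overlaps *Vps4a* and *Cog8* (-1.45 ± 0.22), and *Hoga1*, a mitochondrial aldolase of hydroxyproline breakdown (-1.91 ± 0.29).

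Among the 10 next higher genes by p, none passed the threshold by edgeR in the 6 libraries (adjusted p = 0.168 to 0.292). DESeq2 called all 10 in the same libraries, among its 38 higher genes. Their groups did not overlap, as for 10.3% of all genes tested on the higher side, and the 10 were picked in the same way. *Emid1*, a secreted matrix protein, was at 1.49, 1.34 and 1.62 CPM in controls and at 4.32, 5.79 and 3.53 CPM with SeMSNs (log2 fold change 1.61 ± 0.28). *Cntfr*, the binding subunit of the ciliary neurotrophic factor receptor, was at 6.18, 3.61 and 8.72 CPM against 18.7, 17.1 and 17.2 CPM (1.52 ± 0.30). *Uqcc2*, an assembly factor of respiratory complex III, was at 32.3, 34.7 and 40.7 CPM against 71.8, 75.2 and 54.4 CPM (0.90 ± 0.19), and *Mrps21*, a protein of the mitochondrial ribosome, at 51.0, 56.9 and 57.3 CPM against 111, 102 and 84.5 CPM (0.85 ± 0.18). *Mgme1*, a nuclease of mitochondrial DNA that overlaps *Snx5* on the other strand, had a log2 fold change of 0.90 ± 0.20. The remaining genes were *Sytl2*, a Rab27 effector (1.45 ± 0.30), *Pak1*, a p21-activated kinase (1.19 ± 0.27), *Rpia* of the pentose phosphate pathway (0.89 ± 0.20), the phosphatase *Dusp23* (0.74 ± 0.16) and *Lamtor2*, a subunit of the lysosomal Ragulator complex (0.73 ± 0.15). Without control library 3, 5 of these 10 passed the threshold.

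**Figure D1:**
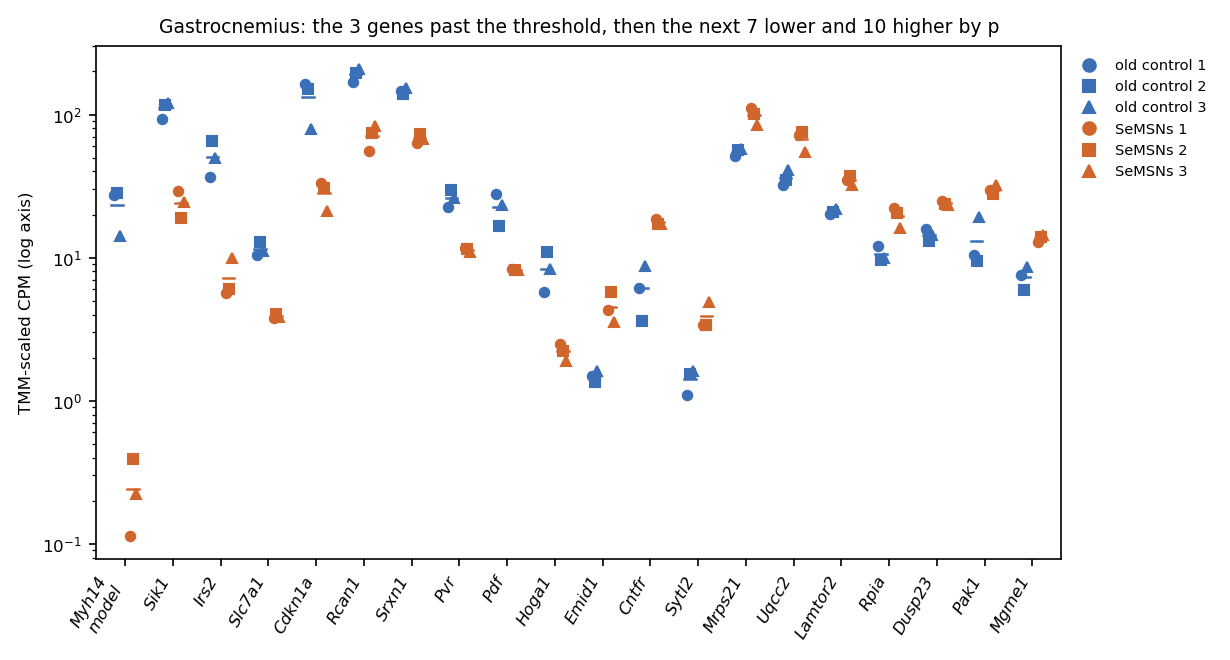
TMM-scaled CPM on a log axis of the 3 genes past the threshold, the next 7 lower genes and the next 10 higher genes, with 1 point per gastrocnemius library, control in blue and SeMSNs in orange, and a short line at each group's mean. In the 20 genes, which were picked by p, no SeMSNs library overlaps a control library.

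Without control library 3, 197 of 13337 genes were lower (1.48%) and 138 were higher (1.03%) at an adjusted p under 0.05, in a comparison of 2 controls with 3 SeMSNs libraries. Leaving out any other single library gave 0 to 4 higher and 0 to 12 lower genes. In the 6 libraries, the groups did not overlap for 1070 lower genes (8.14%) and 1358 higher genes (10.3%) of the 13150 tested. Gene groups are described below by these counts and by the median log2 fold change, which was -0.01 over all genes tested. A group's calls and its genes without overlap are to be read beside these shares over all genes.

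In the *Sik1* pathway, 14 of 15 listed genes were tested, *Sik1* was the 1 that passed the test, and the median log2 fold change was -0.24. *Sik2* was at 9.79, 11.9 and 19.9 CPM in controls and at 14.9, 14.7 and 16.4 CPM with SeMSNs (0.15 ± 0.26), and *Sik3* at 54.5, 47.6 and 39.9 CPM against 31.2, 37.8 and 43.3 CPM (-0.34 ± 0.19). The groups of both kinases overlapped. The coactivator *Crtc2* was at 37.999, 32.8 and 22.5 CPM against 18.7, 21.4 and 18.2 CPM (-0.67 ± 0.22, adjusted p = 0.312), without overlap, and passed without control library 3 (-0.86, adjusted p = 0.0445). *Crtc1* (-0.19 ± 0.19), *Crtc3* (-0.29 ± 0.19) and *Creb1* (-0.10 ± 0.24) overlapped between the groups.

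Target genes of cAMP and CREB were mostly on the lower side: 17 of 21 tested had a negative log2 fold change, with a median of -1.15, and 9 did not overlap on the lower side. The 2 members past the threshold were *Sik1* and *Irs2*. They are the genes reported above, and the list was chosen with earlier results of these data known. *Sik1* is also in the list of its own pathway and *Irs2* in that of insulin signalling. Their calls add no separate support here. *Nr4a3*, an orphan nuclear receptor, was at 50.3, 20.6 and 185 CPM in controls and at 19.4, 8.95 and 11.7 CPM with SeMSNs (-2.68 ± 0.71, adjusted p = 0.307). *Ppargc1a*, the coactivator that drives mitochondrial gene expression, was at 70.3, 64.9 and 184 CPM against 33.6, 35.5 and 37.7 CPM (-1.58 ± 0.38, adjusted p = 0.293). In both genes control library 3 was the highest library, yet the groups did not overlap. Without it *Ppargc1a* passed the threshold (-0.93, adjusted p = 0.0283), *Nr4a3* did not (-1.41, adjusted p = 0.102), and the median of the group was -0.65. *Ucp3*, a mitochondrial uncoupling protein named after its values were seen, was called higher without that library (2.46, adjusted p = 0.0167). It was at 50.99, 103 and 579 CPM in controls and at 552, 317 and 412 CPM with SeMSNs, with overlapping groups and a log2 fold change of 0.81 ± 0.74 in the 6 libraries. *Per1*, a clock gene that CREB induces, was at 109, 105 and 146 CPM against 83.4, 66.5 and 73.1 CPM (-0.69 ± 0.20, adjusted p = 0.312).

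Immediate early genes, which cells switch on within minutes of a stimulus, had the same side: 27 of 29 were negative, the median was -0.91, and 7 did not overlap on the lower side, while none passed the threshold. Several genes, *Nr4a1* and *Nr4a3* among them, are in both this list and that of the cAMP and CREB targets. The groups are therefore not separate observations. The orphan receptor *Nr4a1* was at 217, 140 and 398 CPM in controls and at 131, 98.0 and 112 CPM with SeMSNs (-1.15 ± 0.35). *Ctgf*, a secreted matricellular protein, was at 24.7, 56.9 and 85.5 CPM against 12.5, 17.7 and 17.5 CPM (-1.81 ± 0.39, adjusted p = 0.276). *Jund*, an AP-1 subunit, was at 28.7, 21.1 and 20.2 CPM against 11.9, 13.1 and 12.3 CPM (-0.90 ± 0.19, adjusted p = 0.263), and *Jun*, another, had a log2 fold change of 0.23 ± 0.21 with overlapping groups. The controls differed widely among themselves in this group. Set against the mean of the controls, its mean log2 CPM was -0.64, 0.03 and 0.61 in the controls and -1.13, -0.98 and -0.86 with SeMSNs.

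Endothelial, macrophage and matrix genes lay in the same order among the controls, lowest in library 1 and highest in library 3. Schwann cell and nerve markers did not share it. Set against the mean of the controls, their mean log2 CPM was -0.454, 0.418 and 0.035 in control libraries 1 to 3. Smooth muscle and pericyte markers gave no clear answer. Their mean log2 CPM, set in the same way, followed the order at -0.077, -0.024 and 0.102. Their summed level did not, at 1445, 1386 and 1006 FPKM in controls and 876, 1293 and 1200 FPKM with SeMSNs. That list includes *Des*, which was also listed among the sarcomere genes. The summed level of 20 endothelial markers was 308, 440 and 478 FPKM in controls and 308, 283 and 293 FPKM with SeMSNs. For the 22 macrophage markers, 19 of them tested, it was 36.8, 62.2 and 75.7 FPKM against 45.5, 56.8 and 33.7 FPKM, and for the 30 collagen and matrix genes 77.6, 113 and 166 FPKM against 86.8, 84.2 and 91.3 FPKM. Of these endothelial, macrophage and matrix genes none passed the threshold in the 6 libraries, and none was at 0 in every library among the endothelial and macrophage markers. *Thbs1*, a matricellular protein, was at 9.39, 28.1 and 156 CPM in controls and at 5.39, 7.92 and 9.64 CPM with SeMSNs (-3.07 ± 0.87, adjusted p = 0.307). The matrix cross-linking enzyme *Loxl1* showed no such gradient, at 13.9, 15.5 and 13.8 CPM against 5.05, 6.85 and 7.51 CPM (-1.15 ± 0.21, adjusted p = 0.181). The part of these cells in the early-response values was not tested.

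**Figure D2:**
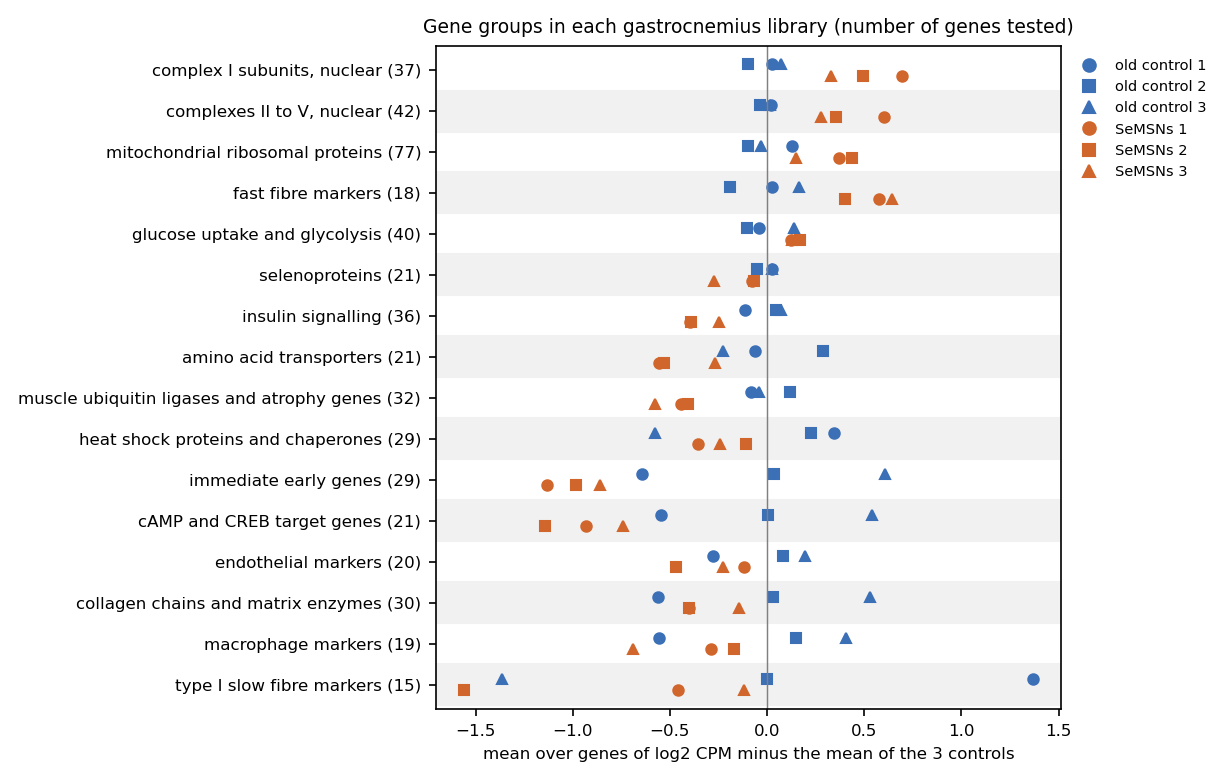
Mean over the tested genes of each group of the log2 CPM minus the mean of the 3 controls, with 1 point per library, control in blue and SeMSNs in orange, circles, squares and triangles for libraries 1 to 3. The genes of complex I lie between 0.33 and 0.70 in the SeMSNs libraries, above each control, whereas the slow fibre markers span -1.37 to 1.37 among the controls.

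Insulin signalling genes other than *Irs2* lay on the lower side without passing the threshold. Of 36 tested, *Irs2* included, 29 were negative, the median was -0.22, and 10 did not overlap on the lower side. *Irs1*, the other main adaptor of the insulin receptor, was at 50.1, 59.1 and 142 CPM in controls and at 33.3, 36.5 and 31.2 CPM with SeMSNs (-1.31 ± 0.36, adjusted p = 0.307). *Pdpk1*, the kinase that activates Akt, was at 61.3, 72.0 and 38.1 CPM against 30.9, 30.9 and 32.8 CPM (-0.86 ± 0.24), and passed without control library 3 (-1.08, adjusted p = 0.0191). *Pik3r1*, the regulatory subunit of phosphoinositide 3-kinase, was at 42.5, 74.1 and 47.3 CPM against 33.5, 33.2 and 31.3 CPM (-0.74 ± 0.23). *Gsk3b*, a kinase that Akt inhibits, was at 89.2, 123 and 89.6 CPM against 21.98, 22.1 and 73.9 CPM (-1.36 ± 0.45), and SeMSNs library 3 lay well above the other SeMSNs libraries.

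Glucose transport and glycolysis genes lay on both sides. Of 40 tested, 28 were positive with a median of 0.19 (0.08 without control library 2), and none passed the threshold. On the higher side 11 did not overlap, against 10.3% of all genes tested. On the lower side 3 did not, against 8.14% of all. The muscle enolase *Eno3* was at 1448, 1468 and 1905 CPM in controls and at 3068, 2761 and 2678 CPM with SeMSNs (0.82 ± 0.22, adjusted p = 0.307). *Ldha*, a subunit of lactate dehydrogenase, was at 965, 809 and 1525 CPM against 2293, 2034 and 1866 CPM (0.91 ± 0.27), and passed without control library 3 (1.22, adjusted p = 0.0295). The widespread glucose transporter *Slc2a1* was at 16.5, 21.8 and 11.8 CPM against 5.57, 5.69 and 5.996 CPM (-1.54 ± 0.25, adjusted p = 0.142), while *Slc2a4*, the insulin-responsive transporter of muscle, was at 486, 491 and 492 CPM against 589, 691 and 450 CPM (0.24 ± 0.21). *Slc2a1* passed without control library 3 (-1.74, adjusted p = 0.0129), and the groups of *Slc2a4* overlapped.

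Nuclear genes of the respiratory chain were on the higher side together, by small amounts. All 37 tested subunits of complex I had a positive log2 fold change, with a median of 0.53, and 28 did not overlap on the higher side. Of the 42 subunits of complexes II to V, 39 were positive (median 0.41) and 26 did not overlap. None of these genes passed the threshold, with or without control library 3. *Ndufv3*, an accessory subunit of complex I, was at 56.5, 48.2 and 70.1 CPM in controls and at 125, 95.9 and 84.3 CPM with SeMSNs (0.80 ± 0.22). *Ndufb2* was at 13.7, 14.3 and 16.2 CPM against 28.4, 24.6 and 19.95 CPM (0.72 ± 0.19), and *Ndufa1* at 36.3, 35.7 and 41.3 CPM against 70.6, 56.6 and 51.1 CPM (0.65 ± 0.18). In the other complexes, *Sdhb* of complex II was at 194, 231 and 215 CPM against 371, 287 and 291 CPM (0.57 ± 0.19), *Cox8b* of complex IV had a log2 fold change of 0.75 ± 0.24 and *Atp5g1* of the ATP synthase one of 0.67 ± 0.17.

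Proteins of the mitochondrial ribosome had a median of 0.32, with 70 of 77 positive and 27 not overlapping on the higher side. *Mrpl18*, which overlaps *Tcp1* on the other strand, was at 56.7, 45.7 and 62.7 CPM in controls and at 103, 87.5 and 87.5 CPM with SeMSNs (0.75 ± 0.19, adjusted p = 0.298). *Tfam*, which packages and transcribes mitochondrial DNA, was at 28.2, 27.6 and 31.4 CPM against 41.8, 43.1 and 35.3 CPM (0.47 ± 0.16). Genes of the mitochondrial genome itself took 25.8, 21.9 and 24.9% of the counts in controls and 26.9, 22.1 and 19.7% with SeMSNs. These shares overlapped, at 24.2 ± 2.05% (SD, n = 3) against 22.9 ± 3.69% (SD, n = 3; exact two-sided permutation p = 0.70, where the smallest p that 3 against 3 allows is 0.10). One mitochondrial gene was out of line: *mt-Atp6* was at 27968 CPM in control library 1 and between 3288 and 5463 CPM in the other 5. It overlaps *mt-Atp8* on the same strand, and how reads were divided between them is uncertain.

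Short genes as a whole lay on the higher side, those of the respiratory chain and the mitochondrial ribosome among them. The median log2 fold change was 0.15 in the 2630 shortest of the genes tested and -0.10 in the 2630 longest. Complex I genes had a median length of 2066 bases, against 5305 bases over all genes tested. With a trend on gene length removed in each library, the median was 0.37 for complex I, 0.30 for complexes II to V and 0.23 for the mitochondrial ribosome, and *Sik1*, *Irs2* and the *Myh14* model remained past the threshold (adjusted p = 0.0273, 0.0365 and 0.0033). The part of gene length in these values was not tested further.

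**Figure D3:**
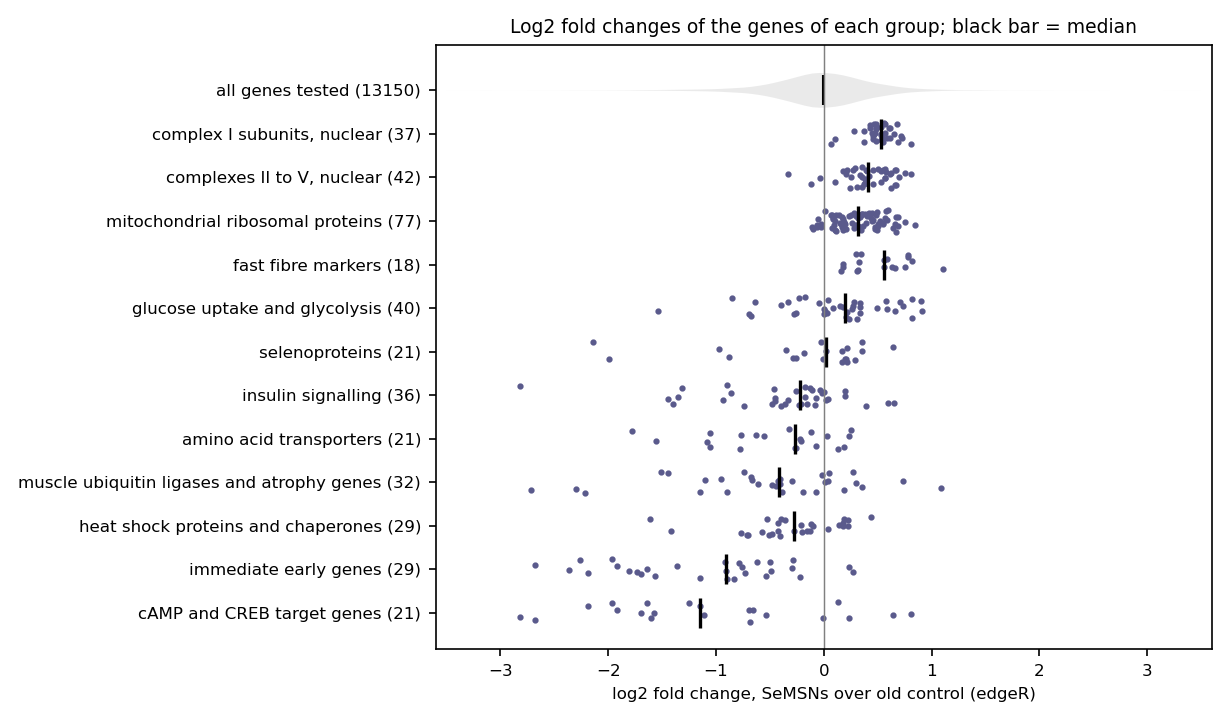
Log2 fold change (SeMSNs over old control, edgeR) of each tested gene of 12 groups as points, with the median as a black bar and the distribution over 13150 genes in grey at the top within the limits of the axis. Each of the 37 complex I genes lies to the right of 0, and the cAMP and CREB targets centre at -1.15.

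Fast fibre genes were also on the higher side, with all 18 tested positive, a median of 0.56 and 13 without overlap, and with the length trend removed a median of 0.38. *Myh4*, the heavy chain of type IIb fibres, was at 39772, 38168 and 42926 CPM in controls and at 47987, 43529 and 59229 CPM with SeMSNs (0.32 ± 0.25). *Myoz1*, a Z-disc protein of fast fibres, was at 1000.1, 842 and 1132 CPM in controls and at 1914, 1615 and 1581 CPM with SeMSNs (0.78 ± 0.21). The fast regulatory light chain *Mylpf* was at 3439, 3081 and 5924 CPM against 7933, 6276 and 7209 CPM (0.78 ± 0.29), and the calcium buffer *Pvalb* at 2003, 1582 and 3170 CPM against 4433, 3320 and 3623 CPM (0.75 ± 0.29). None of these passed the threshold in the 6 libraries, and *Mylpf* did without control library 3 (1.13, adjusted p = 0.0484). *Casq1*, the calcium store protein of the fast fibre reticulum, was at 653, 445 and 1773 CPM against 2044, 1957 and 2159 CPM (1.10 ± 0.45), and passed without control library 3 (1.90, adjusted p = 0.0133). In *Mylpf*, *Pvalb* and *Casq1* control library 3 lay nearest to the SeMSNs libraries.

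Slow fibre markers varied widely among the controls. Of 15 tested, 14 were negative and none passed the threshold or kept its groups apart, with a median of -0.96, of -0.04 without control library 1 and of -1.41 without control library 3. Their summed level was 4447, 2175 and 1775 FPKM in controls and 2033, 1050 and 2635 FPKM with SeMSNs. *Myh7*, the slow myosin heavy chain, was at 5324, 1859 and 300.1 CPM against 753, 227 and 1173 CPM (-1.80 ± 0.89, adjusted p = 0.422). *Tpm3* (-1.52 ± 0.69) and *Tnnc1* (-1.40 ± 0.77) showed the same order of libraries as one another among the controls, highest in library 1 and lowest in library 3. The groups of these 3 genes overlapped.

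Several stretch and chaperone genes separated control libraries 1 and 2 from the other 4 libraries. *Ankrd2*, a stretch-responsive protein of the sarcomere, was at 1203, 1132 and 173 CPM in controls and at 204, 136 and 253 CPM with SeMSNs (-2.08 ± 0.61, adjusted p = 0.312; -2.57 without control library 3, adjusted p = 0.0104). *Hspb7*, a small heat shock protein of muscle, was at 3841, 3323 and 568 CPM against 638, 832 and 1059 CPM (-1.61 ± 0.58; -2.09 without it, adjusted p = 0.0129). Control library 3 was as low as the SeMSNs libraries in both genes. The same held for *Cryab*, the alpha-B crystallin chaperone, at 2496, 2447 and 526 CPM against 999.7, 1067 and 1137 CPM, and for *Hspb1* at 356, 419 and 97.9 CPM against 82.5, 135 and 109 CPM. *Xirp1*, which marks damaged and remodelling sarcomeres, kept its groups apart, at 1216, 1701 and 441 CPM against 144, 301 and 349 CPM (-2.08 ± 0.50, adjusted p = 0.293), and *Flnc*, an actin cross-linker of the Z-disc, did not, at 3527, 5419 and 1270 CPM against 821, 1049 and 1436 CPM (-1.63 ± 0.47). Of 29 heat shock proteins and chaperones tested, 21 were negative (median -0.27, with -0.13 without control library 1 and -0.48 without control library 3), and 3 were called lower without control library 3 against none in the 6 libraries. The lysosomal protein *Cd68*, a macrophage marker, split the libraries in the same way, at 16.5, 16.2 and 3.28 CPM against 1.65, 3.40 and 3.53 CPM (-2.06 ± 0.57). The macrophage markers as a group did not. Their summed level was 36.8, 62.2 and 75.7 FPKM in control libraries 1 to 3, highest in library 3.

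**Figure D4:**
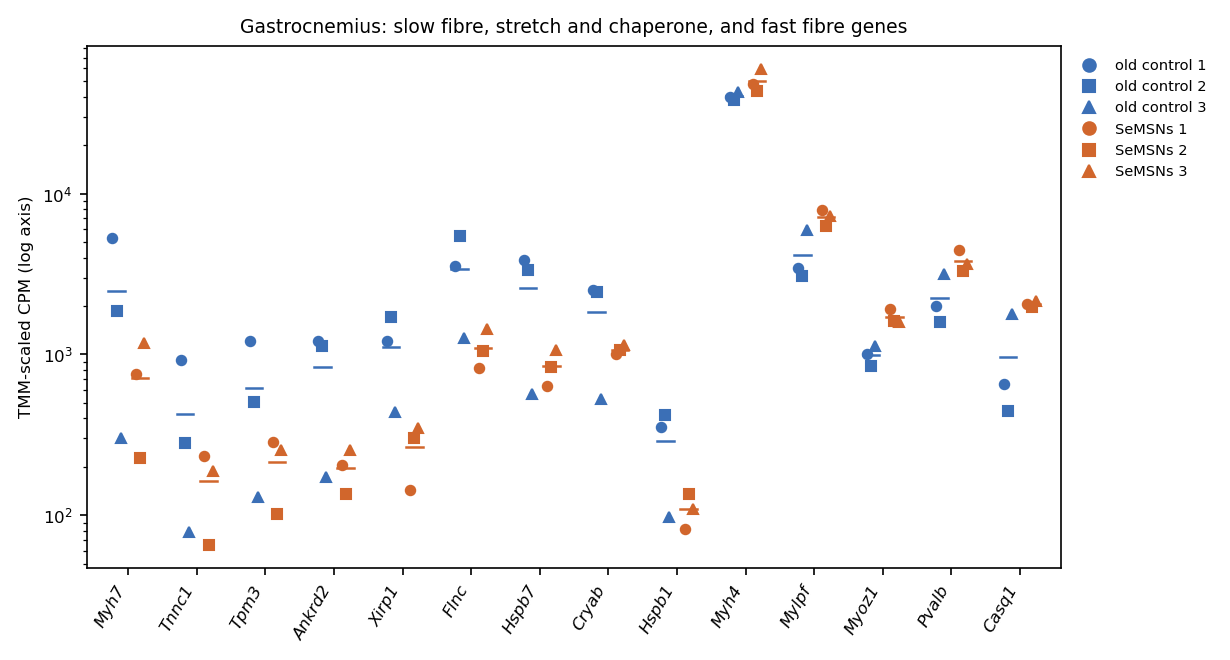
TMM-scaled CPM on a log axis of slow fibre, stretch and chaperone, and fast fibre genes, with 1 point per library, control in blue and SeMSNs in orange, and a line at each group's mean. In *Ankrd2*, *Hspb7* and *Cryab* control library 3, the blue triangle, lies with or below the SeMSNs libraries.

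Genes linked to muscle wasting lay mostly on the lower side, and none passed the threshold in the 6 libraries. Of 32 tested, 23 were negative, the median was -0.42 (-0.27 without control library 2), and 6 were called lower and 1 higher without control library 3. *Trim63*, the ubiquitin ligase MuRF1 that marks muscle proteins for degradation, was at 945, 1416 and 984 CPM in controls and at 419, 452 and 304 CPM with SeMSNs (-1.51 ± 0.25, adjusted p = 0.152; -1.60 without control library 3, adjusted p = 0.0213). *Fbxo32*, the ligase atrogin-1, named after its values were seen, was at 1280, 1894 and 616 CPM against 583, 767 and 677 CPM (-0.90 ± 0.37). The groups of *Trim63* did not overlap and those of *Fbxo32* did. *Bnip3*, a mitophagy receptor, was at 363, 519 and 213 CPM against 200, 209 and 155 CPM (-0.96 ± 0.31). *Eif4ebp1*, a repressor of translation under mTORC1, was at 175, 165 and 43.6 CPM against 33.4, 74.8 and 32.4 CPM (-1.45 ± 0.52), and *Ddit4l*, an mTORC1 inhibitor, was on the other side, at 75.1, 66.9 and 120 CPM against 171, 215 and 169 CPM (1.08 ± 0.25).

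Amino acid transporters had 16 of 21 tested on the lower side (median -0.26, and -0.15 without control library 2), 6 of them without overlap, with *Slc7a1* above. *Slc38a2*, a neutral amino acid transporter induced by amino acid shortage, was at 306, 385 and 204 CPM in controls and at 157, 143 and 129 CPM with SeMSNs (-1.06 ± 0.25, adjusted p = 0.292). *Slc7a5*, the large neutral amino acid transporter, was at 9.79, 7.13 and 4.99 CPM against 1.36, 2.82 and 2.13 CPM (-1.78 ± 0.35), and *Slc6a6*, the taurine transporter, at 185, 153 and 109 CPM against 79.95, 84.3 and 97.2 CPM (-0.78 ± 0.22). These genes passed without control library 3 (adjusted p = 0.0173, 0.0215 and 0.0350).

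Of 16 metallothionein and zinc transporter genes tested, 10 were negative (median -0.14, and -0.05 without SeMSNs library 3), with a wide spread among the controls in those named. The zinc importer *Slc39a14* was at 29.2, 117 and 72.8 CPM in controls and at 13.6, 13.9 and 11.3 CPM with SeMSNs (-2.50 ± 0.43, adjusted p = 0.160; -2.50 without control library 3, adjusted p = 0.0330). The metallothionein *Mt1*, which binds zinc, was at 43.3, 109 and 184 CPM against 28.4, 27.2 and 12.7 CPM (-2.30 ± 0.50), and *Mt2* at 27.0, 152 and 304 CPM against 29.98, 34.4 and 9.02 CPM (-2.72 ± 0.78). The groups overlapped for *Mt2* and not for *Mt1*. Of 27 sphingolipid genes tested, 18 were negative (median -0.24), but without control library 3 the median was -0.0005. On the lower side 4 did not overlap, against 8.14% of all genes tested. *Sphk1*, which makes sphingosine 1-phosphate, was at 2.69, 1.99 and 2.83 CPM against 0.454, 0.583 and 0.168 CPM (-2.60 ± 0.45, adjusted p = 0.154), and *Kdsr*, an enzyme of ceramide synthesis, at 13.4, 14.4 and 16.6 CPM against 6.87, 7.29 and 4.88 CPM (-1.22 ± 0.22, adjusted p = 0.173). Core clock genes had 13 of 21 negative (median -0.18, and -0.07 without control library 3). The clock activator *Arntl*, at 33.1, 36.1 and 17.1 CPM against 11.9, 14.05 and 13.2 CPM (-1.14 ± 0.27), and the repressor *Cry2*, at 159, 236 and 120 CPM against 83.3, 84.1 and 85.4 CPM (-1.03 ± 0.25), did not overlap and passed without control library 3.

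Selenoprotein genes, whose products carry the supplied element, lay on both sides of 0. Of 21 tested, 11 were positive and 10 negative, the median was 0.02, and none passed the threshold with or without control library 3. On each side 2 did not overlap, against 10.3% of all genes tested on the higher side and 8.14% on the lower side. The glutathione peroxidase *Gpx1* was at 52.0, 40.1 and 11.0 CPM in controls and at 53.8, 40.5 and 37.2 CPM with SeMSNs (0.35 ± 0.46), and *Gpx4*, which reduces lipid peroxides, at 93.2, 65.2 and 63.5 CPM against 81.6, 90.4 and 76.6 CPM (0.16 ± 0.20). *Gpx3*, the secreted peroxidase, was at 252, 168 and 62.5 CPM against 67.5, 52.6 and 125 CPM (-0.98 ± 0.48, adjusted p = 0.422). Control library 3 was low in *Gpx1* and *Gpx3*, and the groups of these 3 peroxidases overlapped. *Sepw1*, a selenoprotein abundant in muscle, had a log2 fold change of 0.35 ± 0.25, *Sepp1*, the selenium carrier of plasma, 0.17 ± 0.20, and *Sepn1*, whose loss causes a muscle disease in humans, -0.01 ± 0.30. The lowest log2 fold changes of the list were those of the deiodinases, enzymes that convert thyroid hormones, at low levels and with control library 3 the highest. *Dio2* was at 0.973, 1.48 and 8.05 CPM in controls and at 0.681, 0.583 and 1.40 CPM with SeMSNs (-1.99 ± 0.78, and -0.48 without control library 3), and *Dio3* at 0.572, 0.510 and 3.19 CPM against 0.568, 0.340 and 0.056 CPM (-2.14 ± 0.88, and -0.74). Their groups overlapped. *Txnrd1*, thioredoxin reductase of the cytosol, was at 91.9, 107 and 96.1 CPM against 76.3, 83.4 and 81.4 CPM (-0.29 ± 0.16, adjusted p = 0.468), without overlap.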

How the data were processed

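The authors deposited 1 table with read counts and FPKM (fragments scaled to gene length and library size) per gene for 18 polyadenylated RNA libraries. GRCm38 is the build per the submitters' processing notes, while for the aligner, the counter and its use of strand the sources used here give nothing. Of 34745 genes, 34344 had their identifier in GENCODE M21, from which 27 symbols that had turned into dates were named. The libraries of one group were not duplicates: chi-square per degree of freedom between their counts was 34.3 to 127.

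Groups came from the titles. Deposited counts of the 6 gastrocnemius libraries were filtered with filterByExpr (minimum count 10, minimum total 15), scaled by TMM and tested with edgeR 4.0.16 (glmQLFit, glmQLFTest; R 4.3.3). SE was taken from the log2 fold change and the F statistic, as their ratio after taking the root of F. P-values were adjusted by Benjamini and Hochberg with a threshold of 0.05. Differences between tissues came from one edgeR fit of 18 libraries in 6 groups, which treated the libraries as independent. The share of mitochondrial counts had an exact permutation test. Levels of marker lists are sums of the deposited FPKM values. Alternatives were DESeq2 1.42.0, limma 3.58.1 on log2(FPKM + 1) and log2(FPKM + 0.1) with FPKM of at least 0.5 in 3 libraries, other scalings and filters, a replicate term, and each library left out. A length trend was chosen after seeing the data.

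The text names the called genes, the next genes by p whose log2 fold change reached 0.58 in size, up to 10 per direction, a set of Sik, Crtc, insulin adaptor and selenoprotein genes, per list genes taken from the 4 smallest p and the 2 highest FPKM values, and up to 5 per direction that differed between tissues. Genes that a sentence singles out beyond these were named after their values were seen. The genes and lists were chosen with earlier results of these data known. Of 94 genes named for the gastrocnemius comparison, 6 overlap a tested gene with an FPKM of at least 10% of their own. Some genes that the rule names are not reported here.

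Counts of 12962 genes were simulated for the gastrocnemius comparison. There 22.2% of genes changed 2-fold and 86.2% of those changed 4-fold were recovered, and 7 of 110 calls were unchanged genes. For the difference from kidney these shares were 7% and 60%, and for that from brain 11% and 59%. In the deposited counts *Sik1*, *Irs2* and the *Myh14* model, all beyond 4-fold, passed the threshold. *Cdkn1a*, *Slc39a14*, *Sphk1* and *Thbs1*, also beyond 4-fold, were among those that did not. Whether the shares hold for these libraries, with control library 3 apart from the other controls, was not tested. The biological coefficient of variation was 0.26. Totals of 18262444 to 20758114 counts bound the precision of low genes.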

Additional observations from a re-analysis of the deposited data

Results flagged for a closer look

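The log2 fold change in gastrocnemius differed from that of another tissue, by the test of the difference itself in the edgeR fit of 18 libraries, in 2 genes against kidney and 6 against brain. Lower in gastrocnemius were the *Myh14* model ENSMUSG00000108439, by -6.3994 against kidney (adjusted p = 0.0129) and -6.1893 against brain (adjusted p = 0.0106), and *Irs2*, by -2.8548 against kidney (adjusted p = 0.0358) and -2.7432 against brain (adjusted p = 0.0191). *Hoga1* had a difference of -2.6806 against brain (adjusted p = 0.0191), from log2 fold changes of -1.91 in gastrocnemius and 0.80 in brain.

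The other genes that differed from brain had their larger fold change in brain, where none passed the threshold (adjusted p = 0.179 each). *Sh3rf2*, a ubiquitin ligase with SH3 domains, had a difference of 6.1636 (adjusted p = 0.0106), with 0.03 ± 0.31 in gastrocnemius and -6.12 ± 0.74 in brain. *Map3k15*, a kinase of the MAP kinase cascade, had one of 2.6929 (adjusted p = 0.0163), with 0.79 ± 0.40 against -1.88 ± 0.23. *Arhgap18*, a GTPase-activating protein, had one of 1.4806 (adjusted p = 0.0191), with 0.26 ± 0.26 against -1.19 ± 0.15. Groups of 3 libraries were not tested for outlying samples.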

How the results depend on the processing

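No gene was higher and 3 were lower in the 6 libraries, and these counts were the same with DESeq2 size factors, a CPM filter, the mitochondrial genome left out and the length trend removed. Higher genes numbered 38 by DESeq2, 6 in a fit of all 18 libraries, 2 with no filter and 1 each with library totals alone and with limma at either pseudocount, and lower genes 125 by DESeq2, 24 with all 18 libraries and 29 with no filter. Leaving out 1 library gave 0 to 138 higher and 0 to 197 lower genes, with the highest counts without control library 3, and 4 and 12 without control library 1. Genes that differed from kidney, 2 in the main test, numbered 45 by DESeq2, 1 by limma with 0.1 and 4 by limma with 1, and 0 to 101 with a library left out. Those that differed from brain, 6 in the main test, numbered 281, 31 and 97 by the same tools, 13 with no filter and 3 to 288 with a library left out. Same-numbered control and SeMSNs libraries of gastrocnemius did not deviate together (correlations of deviations -0.109, -0.010 and -0.039). For same-numbered controls the correlations were 0.047, 0.072 and 0.089 between gastrocnemius and kidney. Between gastrocnemius and brain they were 0.044, 0.021 and 0.050. With SeMSNs they were -0.033, 0.050 and 0.026 for kidney and 0.041, 0.004 and -0.023 for brain. Whether the same mouse gave several tissues is not in the labels and was not tested. With a replicate block there were 0 higher and 3 lower genes, and 2 and 8 differences from kidney and brain. *Irs2* (adjusted p = 0.0361) and the model Myh14 (ENSMUSG00000108439) (adjusted p = 0.00215) stayed past the threshold under the block, and *Sik1* did not (0.0831). The difference in the share of counts from genes of the mitochondrial genome was -1.26 percentage points, and -3.28 to 0.345 with a library left out, positive without SeMSNs library 3. Over 94 genes named for the gastrocnemius comparison and their alternatives, 1460 of 1588 values kept direction and side of the threshold, 109 crossed to pass it and 10 to miss it. The 9 of opposite sign, on the log2 scale, belonged to 5 genes near 0 or led by 1 library. With a library left out, *Sik2* ranged from -0.046 to 0.498 (lowest without control library 1), *mt-Atp6* from -1.92 to 0.050 (highest without control library 1), *Creb1* from -0.306 to 0.044 and *Gpx1* from -0.072 to 0.782 (each of opposite sign without control library 3), and *Sepn1* from -0.222 to 0.216 (positive without SeMSNs library 2 or control library 3). *Creb1* was at 0.026 with the length trend removed, and *Sepn1* at 0.00052 with limma at 0.1 and 0.018 with the replicate block. Of 1036 list medians, 35 moved beyond the spread between libraries, and 59 had the sign opposite to that of the main fit. The cause of these changes was not tested.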

Other observations

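Genes of the neuromuscular junction and of denervated muscle had 15 of 22 tested on the lower side (median log2 fold change -0.24, and -0.12 without control library 1 or SeMSNs library 2), none past the threshold in the 6 libraries and 4 called lower without control library 3. The adhesion molecule *Ncam1* was at 24.7, 12.7 and 7.42 CPM in controls and at 3.86, 5.69 and 7.17 CPM with SeMSNs (-1.42 ± 0.42, adjusted p = 0.312). Its groups did not overlap, and control library 3 was the lowest control. Schwann cell and nerve markers had 14 of 15 on the lower side (median -0.59, and -0.34 without control library 2), and their part in these values was not tested.

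Of 27 interferon response genes tested, 23 were positive (median 0.19) and none passed the threshold. SeMSNs library 1 was the highest: set against the mean of the controls, the mean log2 CPM of the list was -0.16, -0.14 and 0.31 in the controls and 0.71, 0.08 and 0.14 with SeMSNs. The median was 0.05 without SeMSNs library 1 and 0.38 without control library 3, where 1 gene was called higher. Among the myokines, *Ostn*, a peptide secreted by muscle, was at 17.1, 10.3 and 48.7 CPM in controls and at 87.4, 55.2 and 64.3 CPM with SeMSNs (1.44 ± 0.50, adjusted p = 0.316). Its groups did not overlap, and it passed without control library 3 (2.33, adjusted p = 0.0133).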
